A study of Mus musculus with 12 samples.

Results

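The nuclear genes that encode subunits of the mitochondrial respiratory chain and ATP synthase were examined in mouse fetal liver cells sorted for the paired immunoglobulin-like receptor PIR. They were taken by symbol: Nduf genes of the a, b, c, s and v series (complex I), Sdha to Sdhd (complex II), Uqcr genes (complex III), Cox4 to Cox8 genes (complex IV) and Atp5 genes (complex V). The table of 23420 genes held 84 of them, namely 37 in complex I, 4 in complex II, 8 in complex III, 18 in complex IV and 17 in complex V. The symbol also takes in Atp5s and Atp5sl, which are not subunits of ATP synthase, and Ndufa4, which is placed here under complex I by its name although its protein is now assigned to complex IV. Subunits with other symbols, such as Ndufab1 of complex I and Cyc1 of complex III, are not among the 84.

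The study compared 4 groups of 3 libraries each: PIR+ KO, PIR+ wild type, PIR- KO and PIR- wild type. Every library was made from a tube of 100 fetal liver cells that were lineage-negative and c-Kit+, received spike-in RNA in a fixed amount, and RNA was primed at the poly(A) tail with a molecular barcode. The labels name no target gene for the KO, no strain and no promoter or Cre driver, and whether a group's libraries are from separate animals is not stated, so p-values measure the spread between these libraries, which may be technical. Groups follow the sample titles. In 6 of the 12 libraries the markers field of the labels gives the opposite PIR sign. The source name gives the embryonic day (E) in step with that field, E12.5 where it says PIR+ and E14.5 where it says PIR-. By these labels every group holds both days, and most wild-type libraries are at E12.5 and most KO libraries at E14.5. Where title and field agree, PIR sign and day coincide. They would coincide in all 12 libraries if the day goes with the title instead. Embryonic day was in no fit, and its part in the PIR and KO comparisons was not tested.

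The receptor messages Pira2, Pira1 and Lilrb3 were at 0 in all 6 libraries titled PIR- and above 0 in all 6 titled PIR+. Kit, the receptor used for sorting, was detected in all 12 libraries, at 34.2 to 56.3 normalized molecules in PIR+ and 18.6 to 34.5 in PIR- libraries. Ptprc, the pan-leukocyte antigen CD45, had 38.1 to 57.6 in PIR+ and 6.4 to 18.0 in PIR- libraries. Library sums ran from 155374.2 to 284648.3 normalized molecules, an estimated 208338 to 442828 molecules. Of the genes, 4542 reached 10 normalized molecules in at least 3 libraries and were tested. A summed erythroid marker level of 898.9 to 1829.4 set 5 libraries (PIR+ KO 1, PIR+ wild type 3, PIR- KO 1 and PIR- wild type 2 and 3) apart from the other 7, at 30.5 to 172.9. All 5 of these globin-rich libraries are among the 6 whose markers field contradicts the title. The fits that leave out the 5 or the 6 therefore differ by 1 library. High globin content and that contradiction cannot be told apart here. The source name puts PIR+ KO 1 and PIR+ wild type 3 at E14.5 and the other globin-rich libraries at E12.5. The 7 others also hold both days, so globin content does not follow the labelled day. Respiratory chain messages took 2.41% to 2.63% of the total in those 5 libraries and 2.46% to 2.60% in the other 7.

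Complexes I and II pass electrons from NADH and succinate to ubiquinone, complex III passes them on to cytochrome c, and complex IV passes them to oxygen. The proton gradient built on the way drives ATP synthase, complex V. Apart from complex II, whose subunits are all nuclear-encoded, these complexes join nuclear-encoded subunits with a few encoded in mitochondrial DNA. Of 13 mitochondrially encoded genes looked for by symbol, 0 were in the table, so their messages could not be analysed here. Blood progenitors change their use of glycolysis and respiration as they mature.

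Promoters of these genes are known for sites of NRF1, the ETS factor GABPA, YY1 and SP1. Windows from 250 bases before to 50 bases after the transcription start (RefSeq, GRCm38.p6) were matched for 69 of the 84 genes, 75 windows in all, and searched on both strands. The NRF1 core (GCGCA, any base, then GCGC) was found in 24% of these windows, against 4.6% of all 32851 windows. The ETS letters CCGGAAG were in 21.3%, against 8.86% of all, and the YY1 letters AANATGG in 29.3%, against 16.1%. The SP1 letters GGGCGG were in 38.7%, near the 35.7% of all windows. Base composition was not matched, and a match of letters is not a measured site. The windows of Sdha, Sdhb and Sdhd are printed because all 4 messages of succinate dehydrogenase were higher in PIR+ cells. No window was matched for Sdhc, its remaining gene. The window of Ndufv3 is printed because it had the highest fold change of the members in wild type. Capitals mark motif letters on either strand.

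Sdha promoter window, chr13:74350191-74350490, minus strand: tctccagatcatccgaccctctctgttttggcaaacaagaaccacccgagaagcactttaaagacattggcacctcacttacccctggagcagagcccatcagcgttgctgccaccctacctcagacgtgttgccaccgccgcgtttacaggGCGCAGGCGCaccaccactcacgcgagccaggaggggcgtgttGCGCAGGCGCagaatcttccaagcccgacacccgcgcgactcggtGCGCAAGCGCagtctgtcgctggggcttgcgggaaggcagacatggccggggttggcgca
Sdhb promoter window, chr4:140961021-140961320, plus strand: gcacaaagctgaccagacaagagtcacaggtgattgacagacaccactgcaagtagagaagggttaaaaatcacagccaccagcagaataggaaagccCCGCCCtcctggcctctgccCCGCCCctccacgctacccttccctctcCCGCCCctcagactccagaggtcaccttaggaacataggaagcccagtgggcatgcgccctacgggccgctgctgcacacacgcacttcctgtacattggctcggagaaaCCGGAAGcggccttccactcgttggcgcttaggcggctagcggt
Sdhd promoter window, chr9:50603800-50604099, minus strand: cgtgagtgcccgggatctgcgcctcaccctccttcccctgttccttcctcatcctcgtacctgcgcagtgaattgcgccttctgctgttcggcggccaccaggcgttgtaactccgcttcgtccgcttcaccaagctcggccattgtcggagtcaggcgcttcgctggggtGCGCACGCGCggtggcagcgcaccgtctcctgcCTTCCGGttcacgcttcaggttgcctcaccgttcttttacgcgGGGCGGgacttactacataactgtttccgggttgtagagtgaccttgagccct
Ndufv3 promoter window, chr17:31519865-31520164, plus strand: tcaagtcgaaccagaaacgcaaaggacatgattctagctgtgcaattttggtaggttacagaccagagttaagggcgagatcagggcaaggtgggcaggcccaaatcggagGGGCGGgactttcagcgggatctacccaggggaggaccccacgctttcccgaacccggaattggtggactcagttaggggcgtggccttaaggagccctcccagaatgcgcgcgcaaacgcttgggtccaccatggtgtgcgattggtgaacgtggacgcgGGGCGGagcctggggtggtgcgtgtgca

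The Sdha window held the NRF1 letters 3 times and none of the other motifs. The Sdhb window held 1 ETS and 3 SP1 matches, and the Sdhd window 1 each of NRF1, ETS and SP1. In the Ndufv3 window SP1 was matched 2 times and none of the other motifs was found. The motifs searched did not overlap one another in the 4 windows.

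Together the 84 messages made up a nearly constant share of the RNA. The share averaged 2.61% ± 0.0112 in PIR+ KO, 2.60% ± 0.0258 in PIR+ wild type, 2.53% ± 0.0905 in PIR- KO and 2.45% ± 0.039 in PIR- wild type (SD, n = 3 each). Every PIR+ library lay above every PIR- library of its genotype, widely in wild type, at 2.58% to 2.63% in PIR+ and 2.41% to 2.48% in PIR-, and narrowly in KO, at 2.60% to 2.62% in PIR+ and 2.43% to 2.60% in PIR-. Complex V took the largest share of the 5 complexes in each group mean, between 0.829% and 0.874%, and complex II the smallest.

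**Figure D1:**
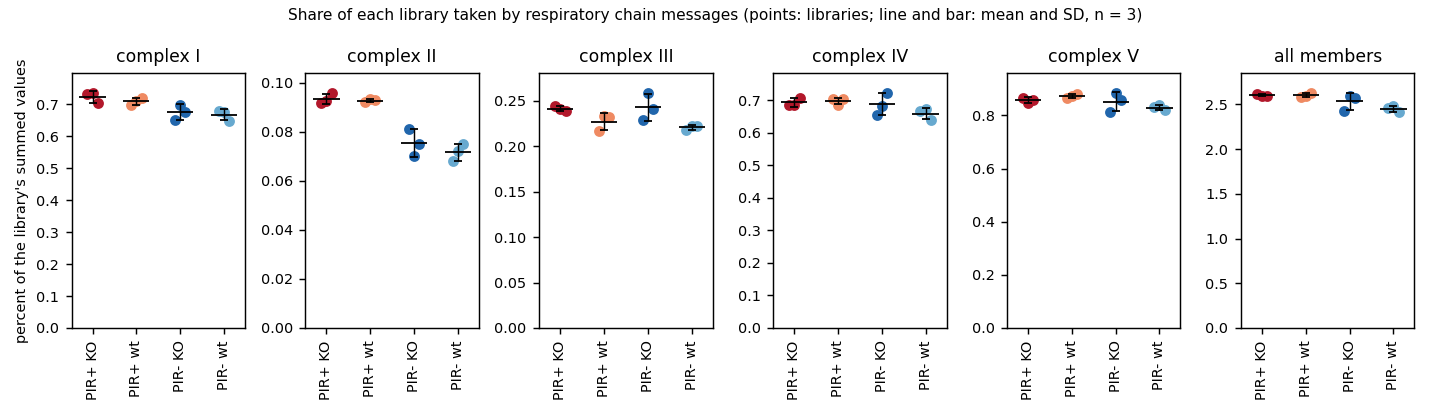
Percent of each library's summed normalized molecules taken by the messages of each complex and of all members, for the 4 groups. Points are libraries, and the line and bar are the mean and SD of 3. For complex II the PIR+ libraries lie at 0.0918% or more and the PIR- libraries at 0.0813% or less.

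Counted per tube, without dividing by the library's total, nearly all of these messages were more abundant in PIR+ wild-type cells than in PIR- wild-type cells. So were most genes tested, whose log2 fold changes had a 13th percentile of 0.002. The members summed to 5928 ± 716 normalized molecules in PIR+ wild type and 4113 ± 357 in PIR- wild type (SD, n = 3 each), a ratio of 1.44, while the library totals had a ratio of 1.36. Of the 75 members tested, 39 rose and 0 fell at an adjusted p under 0.05 (limma on log2(value + 1), Benjamini-Hochberg over 4542 genes), and 46 were at an unadjusted p under 0.05. The share of members called higher was larger than among all genes tested, where 40.6% rose and 3.72% fell. It was slightly above the 48% among genes with at least 20 in 3 or more libraries. For 51 of the 75 members no PIR+ library overlapped a PIR- library and the PIR+ ones were higher. That is a larger share than the 47.6% of all genes. These differences in share were not tested. The median log2 fold change was 0.50 for members and 0.51 for all genes, so the median member moved as the median gene did. Bulk values cannot tell fewer cells of a type from less RNA per cell.

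In KO cells the same comparison gave sums of 6427 ± 904 in PIR+ KO and 4912 ± 800 in PIR- KO (SD, n = 3 each), a ratio of 1.31 beside 1.27 for the library totals. Here 22 of the 75 members rose and 0 fell, while 22.5% of all genes rose and 2.97% fell. For 35 of the 75 there was no overlap with PIR+ higher, against 35.7% of all genes. Both member shares were larger than those of all genes, and the differences were not tested. The median log2 fold change was 0.37 for members and 0.39 for all genes. Of the 39 members called in wild type, 18 were also called in KO, which is 46.2% of the wild-type calls and 81.8% of the 22 KO calls; the 2 comparisons share no library. Averaged over genotypes 54 of the 75 members rose and 0 fell. That is a larger share than the 55% of all genes that rose, while 4.58% of all genes fell.

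Several summed marker levels differed with PIR as well. The 9 markers of the sorted cells in the table, which include Kit and the PIR genes the sort used, summed to 187.3 to 213.9 in PIR+ KO, 214.1 to 280.7 in PIR+ wild type, 65.1 to 92.5 in PIR- KO and 51.4 to 61.2 in PIR- wild type. Il7r, on the same list, went the other way, at 9.7 to 20.3 in PIR+ and 16.1 to 24.4 in PIR- libraries, which overlapped. The 6 macrophage markers in the table summed to 22.6 to 54.1 in PIR+ KO, 22.4 to 31.2 in PIR+ wild type, 4.4 to 8.7 in PIR- KO and 1.1 to 6.2 in PIR- wild type. The 6 megakaryocyte markers summed to 6.1 to 19.8 in PIR+ libraries and 1.1 to 4.8 in PIR- libraries. The 7 hepatocyte markers summed to 7.0 to 26.0 in PIR+ libraries and 13.8 to 62.8 in PIR- libraries. The 15 erythroid markers reached 898.9 in 1 of 3 PIR+ wild-type libraries, against 1492.4 and 1613.7 in 2 of 3 PIR- wild-type libraries, and 1829.4 in 1 of 3 PIR+ KO, against 1384.0 in 1 of 3 PIR- KO libraries. No marker of these lists was at 0 in all 12 libraries. The part of these cells in the result was not tested. Without the 5 globin-rich libraries, 4 members were called in wild type, where 13.5% of all genes were called higher, and 2 in KO, where 10.1% were. That fit leaves PIR- wild type with 1 library, whose spread is assumed to be like that of the other groups, and each other group with 2.

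**Figure D2:**
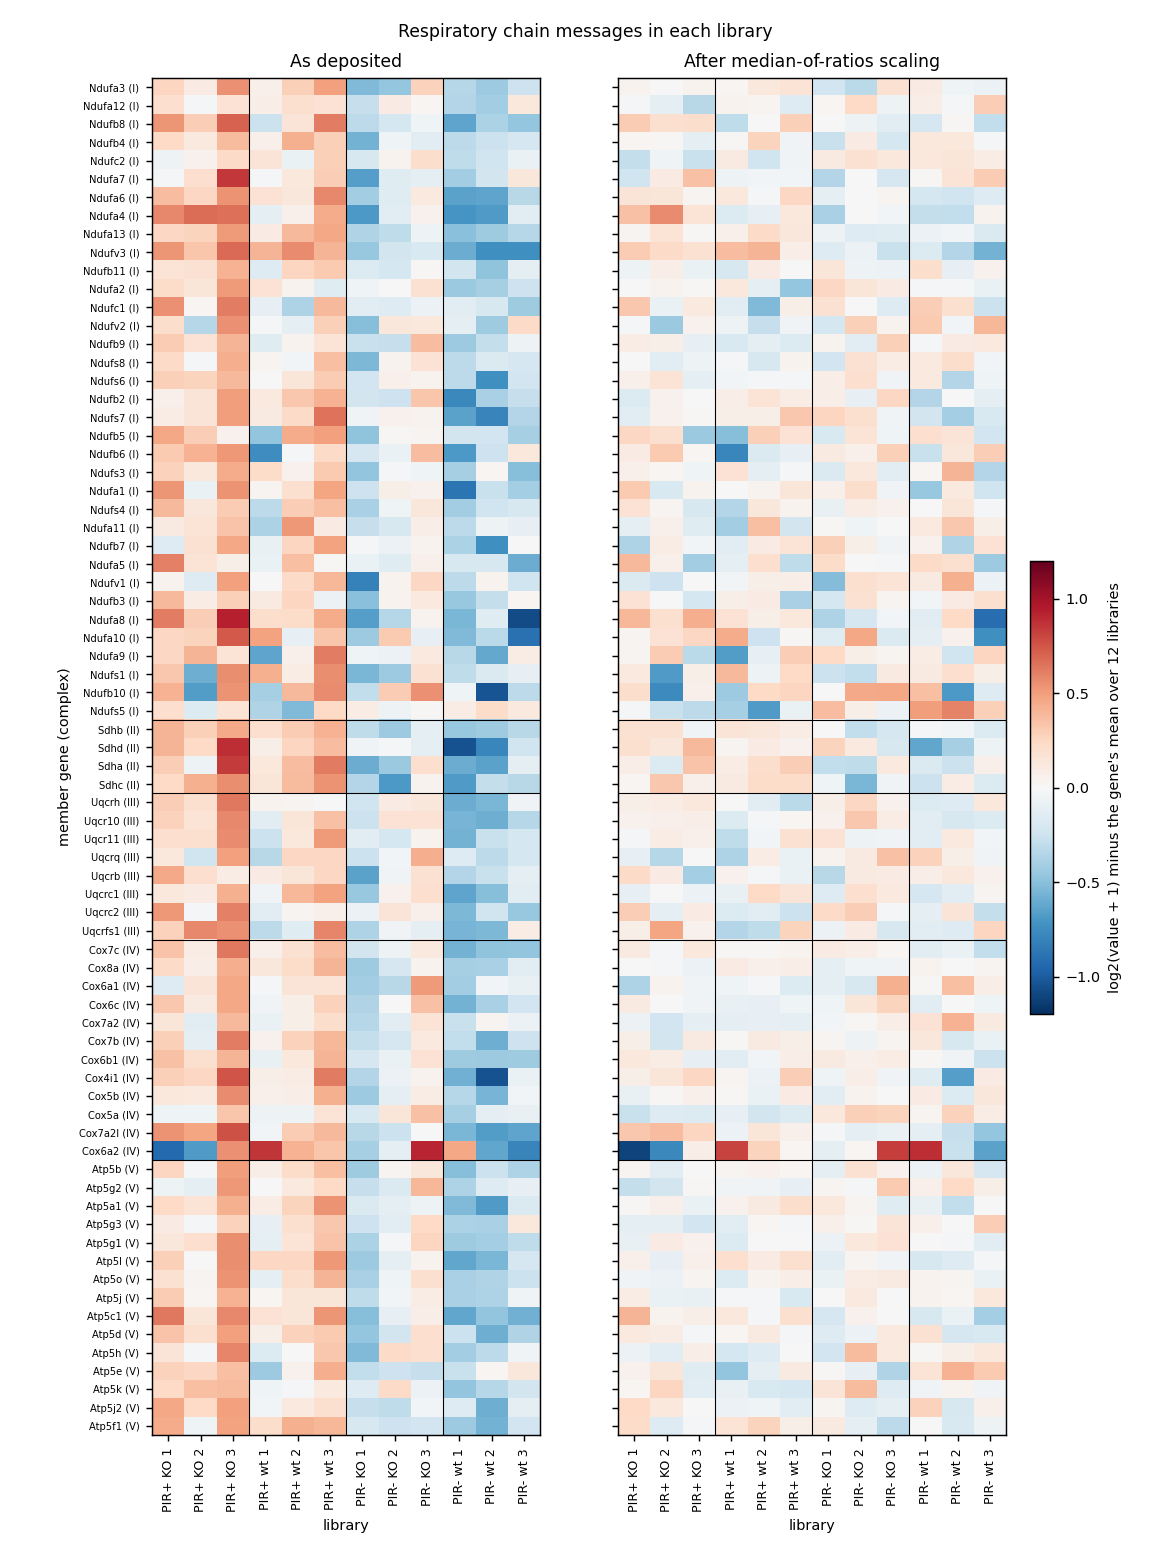
Heat map of 74 of the 75 members tested, ordered by complex and mean level, in the 12 libraries, as log2(value + 1) minus the gene's own mean. On the deposited scale (left) the 6 PIR+ columns are mostly above and the PIR- columns mostly below the mean; after median-of-ratios scaling (right) this common shift is gone and single genes such as Ndufv3 keep it.

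Scaling the libraries by median of ratios, which sets the typical gene at no change, moved the median of all genes in the wild-type comparison to 0.02 and that of the members to -0.01. On that scale 5 of the 75 members rose and 4 fell in wild type, smaller shares than the 11.5% and 11% of all genes. In KO 3 of the 75 rose and 2 fell, smaller shares than the 8.12% and 7.51% of all genes. All 8 higher calls were also calls on the deposited scale, where both scales together called 11.5% of all genes higher in wild type and 8.12% in KO. The members' fold changes were also closer to one another than those of other genes. Their interquartile range after scaling was 0.37 in wild type, against 0.59 over all genes and 0.53 over genes with at least 20 in at least 3 libraries. In KO it was 0.23, against 0.50 and 0.45. Expression level was not matched beyond that cutoff, and the difference in spread was not tested.

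**Figure D3:**
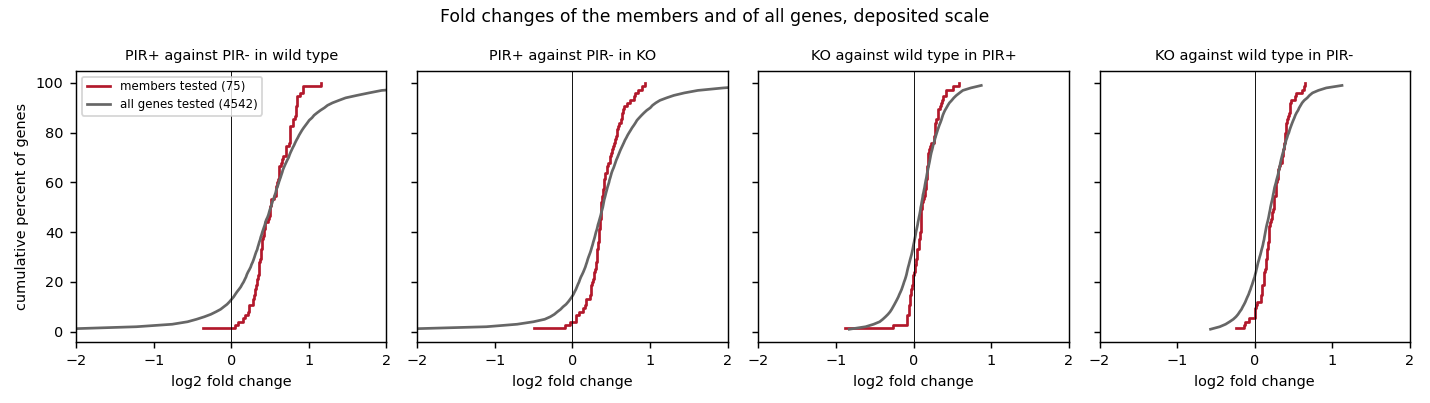
Cumulative percent of genes by log2 fold change on the deposited scale, for the 75 members (red) and all 4542 genes tested (grey), in 4 comparisons. The medians nearly coincide in each panel, at 0.50 for members and 0.51 for all genes in wild type, and the members' curves are steeper in the 2 left panels.

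Succinate dehydrogenase, complex II, was the complex whose messages stood furthest from the common shift. It oxidises succinate in the tricarboxylic acid cycle and feeds the electrons to ubiquinone. Its 4 messages summed to 230 ± 37.9 in PIR+ KO, 211 ± 24.1 in PIR+ wild type, 145 ± 18.7 in PIR- KO and 121 ± 17.9 in PIR- wild type (SD, n = 3 each). The ratio of sums was 1.75 in wild type and 1.58 in KO. After scaling by median of ratios it was still 1.23 and 1.19, with no overlap between PIR+ and PIR- libraries in either genotype. The other 4 complexes had scaled ratios between 0.957 and 1.03. Many other genes shifted as far as complex II or further. On the deposited scale its log2 fold changes in wild type lay between the 67th and 82nd percentiles of all genes tested, at 0.691 and 0.933. In KO they lay between the 68th and 81st percentiles, at 0.554 and 0.750.

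Sdhb, the iron-sulfur subunit (chromosome 4, 140961203 to 140979193, mm10, plus strand), had 83.6, 76.9 and 86.7 normalized molecules in PIR+ KO and 72.3, 77.6 and 84.1 in PIR+ wild type. It had 50.8, 46.1 and 58.0 in PIR- KO and 45.6, 46.5 and 49.7 in PIR- wild type. All 6 PIR+ libraries lay above all 6 PIR- libraries. The log2 fold change between PIR+ and PIR- was 0.71 ± 0.19 (SE) in wild type, adjusted p = 0.0024, and 0.67 ± 0.19 in KO, adjusted p = 0.00655 (limma).

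Sdhd, a membrane anchor (chromosome 9, 50596357 to 50603812, minus strand), had 61.2, 54.4 and 85.9 in PIR+ KO and 48.2, 55.2 and 59.7 in PIR+ wild type. In PIR- KO the values were 44.5, 45.0 and 42.6, and in PIR- wild type 21.7, 26.3 and 38.8. The groups did not overlap within either genotype, and the lowest levels were those of PIR- wild type. Its log2 fold change was 0.92 ± 0.21 in wild type, adjusted p = 0.000332, and 0.57 ± 0.21 in KO, adjusted p = 0.0382 (limma). After scaling the wild-type difference remained at 0.42, adjusted p = 0.0456, while in KO it was 0.17, adjusted p = 0.519 (limma).

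Sdha, the flavoprotein that binds succinate (chromosome 13, 74322254 to 74350280, minus strand), averaged 42.5 ± 14.0 in PIR+ KO and 26.8 ± 8.63 in PIR- KO, where the libraries overlapped. In wild type it averaged 41.9 ± 7.31 in PIR+ and 23.4 ± 5.26 in PIR- libraries (SD, n = 3 each), which did not overlap. Its log2 fold changes were 0.64, adjusted p = 0.0352, in KO and 0.82, adjusted p = 0.00362, in wild type (limma). Sdhc, the other anchor, was named after its values were seen. It averaged 38.4 ± 4.36 in PIR+ KO and 23.0 ± 6.09 in PIR- KO, and 37.1 ± 5.16 in PIR+ wild type and 21.1 ± 3.11 in PIR- wild type. Its log2 fold changes were 0.74, adjusted p = 0.0121, in KO and 0.79, adjusted p = 0.00468, in wild type (limma).

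Within each genotype the Sdhd wild-type difference was the 1 call of complex II among 8 after scaling. Sdhb was then at 0.20, adjusted p = 0.257, in wild type and 0.27, adjusted p = 0.137, in KO, and the Sdha and Sdhc adjusted p ran from 0.188 to 0.379 (limma). The same Sdhd difference was the 1 call among 8 without the globin-rich libraries on the deposited scale, at 1.21, adjusted p = 0.00587, while the adjusted p of the other 7 ran from 0.055 to 0.277 (limma). Averaged over genotypes after scaling, Sdhb, Sdhc and Sdhd were called higher in PIR+ cells, at log2 fold changes of 0.24, 0.32 and 0.30 with adjusted p of 0.0369, 0.0483 and 0.0363 (limma), where 15.4% of all genes were called higher and 14.2% lower. Without the globin-rich libraries and on the deposited scale, the averaged fold changes were 0.68 for Sdha, 0.68 for Sdhb, 0.88 for Sdhc and 0.92 for Sdhd, with adjusted p from 0.000353 to 0.0179. With both changes made together only Sdhd stayed under the threshold among the 4, at 0.49, adjusted p = 0.00769.

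**Figure D4:**
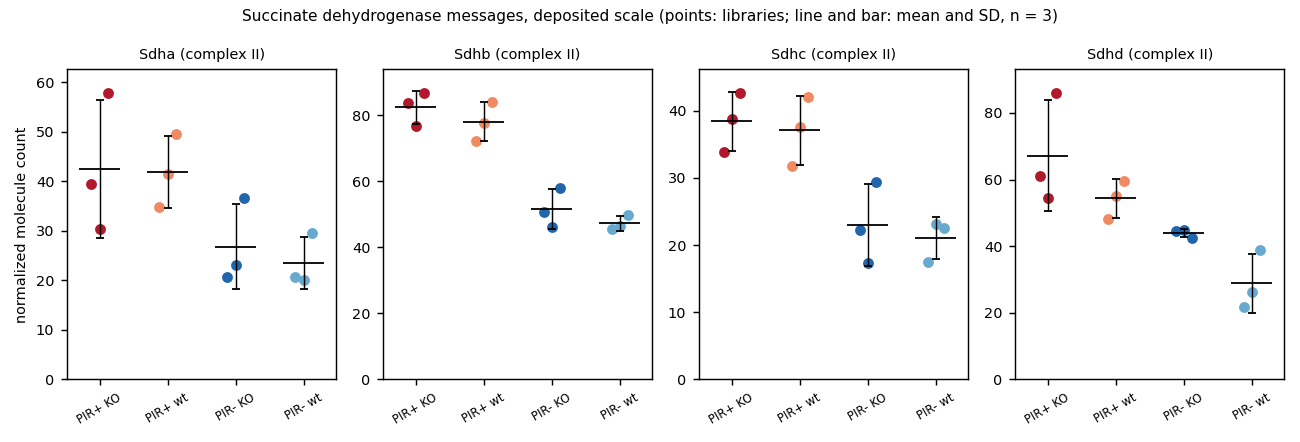
Normalized molecules of Sdha, Sdhb, Sdhc and Sdhd in each library on the deposited scale, by group. Points are libraries, and the line and bar are the mean and SD of 3. For Sdhb the 6 PIR+ libraries lie at 72.3 or above and the 6 PIR- libraries at 58.0 or below.

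Complex I, the entry point for electrons from NADH, had 15 of 36 tested members higher in wild type and 9 in KO. Of all genes, 40.6% and 22.5% were called higher, so these counts are near the general share. Among its 3 most abundant messages, Ndufa3 and Ndufb8 rose in both genotypes and Ndufa12 in neither. Ndufa3 averaged 100.0 ± 16.4 in PIR+ KO, 98.3 ± 14.7 in PIR+ wild type, 69.9 ± 23.5 in PIR- KO and 63.2 ± 4.3 in PIR- wild type (SD, n = 3 each). Levels are molecules per gene, 1 priming event per poly(A) tail, and were not divided by transcript length.

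Ndufv3, an accessory subunit of the NADH-binding module (chromosome 17, 31520115 to 31531331, plus strand), was called on both scales in both genotypes. It had 70.3, 61.2 and 78.3 in PIR+ KO and 64.7, 72.3 and 64.4 in PIR+ wild type. In PIR- KO it had 35.0, 41.5 and 42.6, and in PIR- wild type 31.8, 28.7 and 28.7. The lowest PIR+ value was above the highest PIR- value. The log2 fold change was 1.15 ± 0.20 in wild type, adjusted p = 2.82e-06, and 0.80 ± 0.20 in KO, adjusted p = 0.00174 (limma). After scaling it was 0.64, adjusted p = 0.000831, and 0.40, adjusted p = 0.0462. The authors' deposited table also lists it under 0.05 for wild type, at p = 0.00601. Without the globin-rich libraries Ndufv3 was at 1.08, adjusted p = 0.015, in wild type and was not called in KO, at 0.71, adjusted p = 0.0718. With scaling as well it was called in neither genotype, at 0.55, adjusted p = 0.0693, in wild type and 0.37, adjusted p = 0.145, in KO; the average over genotypes was 0.46, adjusted p = 0.00738 (limma).

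Ndufs7, a core iron-sulfur subunit, was called on both scales in wild type only, and the difference between genotypes was not past the threshold. It averaged 42.2 ± 8.84 in PIR+ wild type and 21.6 ± 3.59 in PIR- wild type, a log2 fold change of 0.92, adjusted p = 0.000586. In KO it averaged 39.6 ± 6.52 in PIR+ and 33.2 ± 1.22 in PIR- libraries (SD, n = 3 each), a log2 fold change of 0.24, adjusted p = 0.424. Without the globin-rich libraries the wild-type adjusted p of Ndufs7 was 0.105 (limma). The interaction was -0.69 ± 0.32, adjusted p = 0.799 (limma).

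Ndufa4 had 83.0, 88.6 and 88.2 in PIR+ KO and 50.8, 57.9 and 75.9 in PIR+ wild type. It had 33.9, 50.2 and 57.3 in PIR- KO and 33.4, 34.1 and 50.4 in PIR- wild type. PIR+ KO libraries were the highest of all 12. Its log2 fold change between PIR+ and PIR- was 0.90 ± 0.21 in KO, adjusted p = 0.000515, and 0.50 after scaling, adjusted p = 0.0154. In wild type it was 0.64 ± 0.21, adjusted p = 0.00993, and was not called after scaling (limma). Without the globin-rich libraries Ndufa4 was called in neither genotype, with an adjusted p of 0.0662 in KO and 0.144 in wild type (limma).

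Ndufs5, an accessory subunit on the intermembrane-space side, went the other way relative to the rest. It had 10.8, 9.5 and 16.9 in PIR+ wild type and 15.1, 16.7 and 15.5 in PIR- wild type, with overlapping libraries. Its deposited-scale log2 fold change of -0.36 ± 0.28 missed the threshold, adjusted p = 0.276, while after scaling it fell by 0.85, adjusted p = 0.00663 (limma). Its level is uncertain: its values were whole multiples of the 1-molecule step, within 0.055, in only 5 of 12 libraries, whereas 71 of the 75 members were so in all 12. Reads shared with near-identical copies can give such values, and how they were counted is not given in the sources used here.

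Complex III, which passes electrons from ubiquinol to cytochrome c, had 3 of 8 members higher in wild type and 1 in KO. These counts do not exceed the general share, since 40.6% and 22.5% of all genes were called higher. Uqcrh, its most abundant message, averaged 103.0 ± 16.9 in PIR+ KO, 79.8 ± 1.06 in PIR+ wild type, 78.8 ± 10.9 in PIR- KO and 60.3 ± 13.7 in PIR- wild type (SD, n = 3 each), and was called in neither genotype. Uqcr10 and Uqcr11, small subunits, were called in wild type at log2 fold changes of 0.62, adjusted p = 0.00763, and 0.47, adjusted p = 0.0462 (limma). Uqcrc1, a core subunit, was the third wild-type call, and Uqcrfs1, the Rieske iron-sulfur protein, the KO call; both were named after their values were seen. No member of complex III was called after scaling in either genotype.

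Complex IV, cytochrome c oxidase, had 9 of 12 tested members higher in wild type and 3 in KO. Beside the 40.6% and 22.5% of all genes called higher, the KO count is near the general share. Its most abundant messages were Cox7c, Cox8a and Cox6a1. Cox7c averaged 282.0 ± 53.7 in PIR+ KO, 252.0 ± 28.1 in PIR+ wild type, 210.0 ± 24.2 in PIR- KO and 153.0 ± 5.74 in PIR- wild type (SD, n = 3 each). It was called in wild type, at a log2 fold change of 0.71, adjusted p = 0.000572, and missed the threshold in KO, at 0.41, adjusted p = 0.0638 (limma). Cox8a was called in both genotypes and Cox6a1 in neither.

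Cox7a2l, which joins complexes III and IV in supercomplexes, was the complex IV message that rose on both scales in both genotypes (chromosome 17, 83501918 to 83517330, minus strand). It had 89.1, 84.7 and 104.2 in PIR+ KO and 59.7, 75.6 and 80.0 in PIR+ wild type, against 48.2, 50.7 and 61.0 in PIR- KO and 41.3, 38.0 and 38.8 in PIR- wild type. Within each genotype PIR+ and PIR- libraries did not overlap. The log2 fold change of Cox7a2l was 0.79 ± 0.20 in KO, adjusted p = 0.00138, and 0.84 ± 0.20 in wild type, adjusted p = 0.0004. After scaling these were 0.39, adjusted p = 0.0263, and 0.33, adjusted p = 0.0483 (limma). Without the globin-rich libraries Cox7a2l was called in KO, at 0.75, adjusted p = 0.0452, and not in wild type, at 0.69, adjusted p = 0.134. With scaling as well it was called in neither, with an adjusted p of 0.0704 in KO and 0.678 in wild type (limma).

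Its paralog Cox7a2, the widely expressed subunit of complex IV, did not share this. Cox7a2 averaged 150.0 ± 26.9 in PIR+ KO, 142.0 in PIR+ wild type (127.6 to 156.6), 127.0 ± 22.8 in PIR- KO and 126.0 ± 13.2 in PIR- wild type (SD, n = 3 each). It was not called on the deposited scale, and after scaling it fell by 0.35 in wild type, adjusted p = 0.00864 (limma). Cox5a, another small subunit, likewise fell after scaling by 0.43 in KO, adjusted p = 0.00498, and by 0.30 in wild type, adjusted p = 0.0452 (limma). On the deposited scale Cox5a had 83.6, 83.7 and 109.5 in PIR+ KO and 76.3, 95.7 and 110.9 in PIR- KO, which overlapped. These lower calls therefore stand against the typical gene and not per tube.

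**Figure D5:**
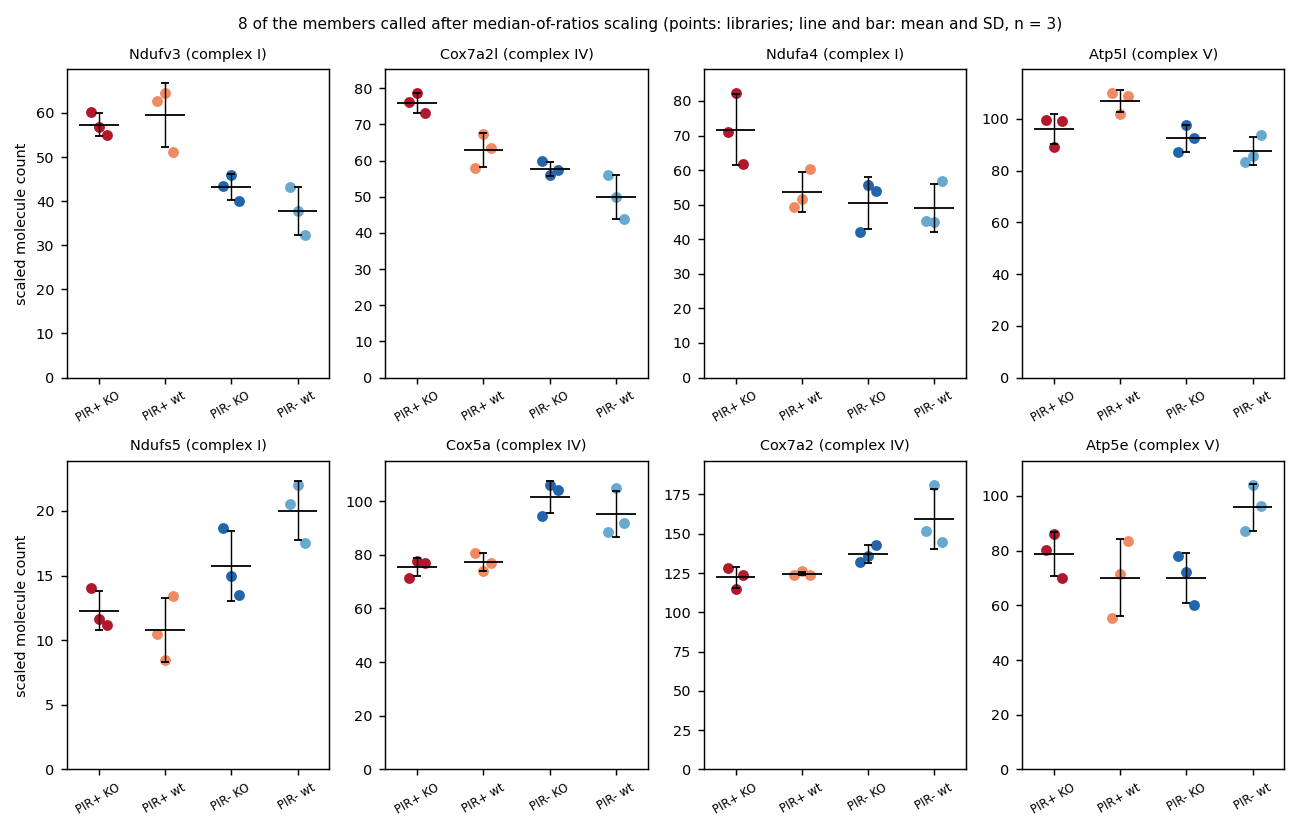
Molecule counts after median-of-ratios scaling for 8 members called on that scale in at least 1 genotype, by group. Points are libraries, and the line and bar are the mean and SD of 3. The top row holds messages with higher means in PIR+ libraries. The bottom row holds messages with lower means there, which for Atp5e held in wild type only. For Cox7a2l in KO the scaled log2 fold change is 0.39 and for Cox5a it is -0.43.

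Isoforms that other tissues use in complex IV were scarce. Cox4i1 averaged 92.2 over the 12 libraries and its lung-enriched paralog Cox4i2 1.59. Cox6b1 averaged 101 and the testis isoform Cox6b2 2.25, and Cox7a2 averaged 136 and the heart and muscle isoform Cox7a1 2.98. Cox8b and Cox8c were at 0 in all 12 libraries beside 201 for Cox8a, and Cox7b2 was above 0 in 1 library, at 0.2, beside 113 for Cox7b. Ndufa4l2, a paralog of Ndufa4, was at 0 in all 12. These 6 complex IV isoforms, Ndufa4l2, Atp5s (highest value 5.1) and Atp5sl (15.2) are the 9 members that were not tested.

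The heart and muscle isoform Cox6a2 was the exception, with an average of 11.2 beside 155 for Cox6a1. It had 4.8, 5.9 and 15.2 in PIR+ KO, and 19.0, 13.8 and 12.9 in PIR+ wild type. The PIR- KO libraries had 7.4, 9.2 and 19.8, and the PIR- wild-type libraries 14.3, 6.2 and 5.4. Libraries of every pair of groups overlapped. In wild type PIR+ exceeded PIR- by a log2 fold change of 0.85 ± 0.34, adjusted p = 0.0347 (limma); it was not called after scaling.

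Complex V, ATP synthase, had 8 of 15 tested members higher in wild type and 5 in KO, beside 40.6% and 22.5% of all genes. Atp5b, the catalytic beta subunit and the most abundant member of all, averaged 379.0 ± 67.9 in PIR+ KO, 368.0 ± 35.8 in PIR+ wild type, 301.0 ± 59.4 in PIR- KO and 242.0 ± 21.4 in PIR- wild type (SD, n = 3 each). It rose in wild type by 0.60 on the log2 scale, adjusted p = 0.00324, and was at 0.34, adjusted p = 0.131, in KO. Atp5a1, its alpha partner, was called in wild type, at 0.76, adjusted p = 0.000331, and was at 0.39, adjusted p = 0.0884, in KO (limma).

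Atp5l, subunit g of the membrane part, had 113.6, 113.8 and 137.6 in PIR+ wild type and 61.5, 65.1 and 83.0 in PIR- wild type, which did not overlap. Its log2 fold change of 0.80 ± 0.19, adjusted p = 0.000436, was 0.29 after scaling, adjusted p = 0.0422. Atp5c1, the gamma subunit of the central stalk, rose by 0.73 ± 0.14 averaged over genotypes, adjusted p = 4.06e-06, and by 0.28 after scaling, adjusted p = 0.0145. Within each genotype Atp5c1 was not called after scaling, with an adjusted p of 0.235 in KO and 0.0519 in wild type, and with scaling and without the globin-rich libraries its average was 0.14, adjusted p = 0.41 (limma). Atp5e, the epsilon subunit of the same stalk, averaged 80.8 ± 24.0 in PIR+ wild type and 76.2 ± 10.9 in PIR- wild type (SD, n = 3 each). After scaling it fell by 0.46 in wild type, adjusted p = 0.0143 (limma), though on the deposited scale it was called higher in KO.

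Atp5g1, Atp5g2 and Atp5g3 encode the same mature rotor subunit c, and averaged 111, 211 and 144 over the 12 libraries. Only Atp5g1 was called on the deposited scale, in wild type, at 0.51, adjusted p = 0.022 (limma). Atp5g2 averaged 229.0 ± 59.1 in PIR+ KO and 210.0 ± 56.1 in PIR- KO, and 226.0 ± 18.9 in PIR+ wild type and 180.0 ± 17.4 in PIR- wild type (SD, n = 3 each). After scaling and averaged over genotypes, Atp5g2 fell by 0.23, adjusted p = 0.00928, and Atp5g3 by 0.20, adjusted p = 0.0239 (limma).

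Between KO and wild type no respiratory chain message was called in the fit of group means to all libraries. Some other fits called members, as given at the end. In PIR+ cells members summed to 6427 ± 904 in KO and 5928 ± 716 in wild type, a ratio of 1.08 that equals that of the library totals. Of the 75 members, 0 were called by limma, against 0.903% of all genes, and 3 were at an unadjusted p under 0.05. After scaling 0 were called, against 1.01% of all genes, and 5 were under 0.05. In PIR- cells the sums were 4912 ± 800 in KO and 4113 ± 357 in wild type, a ratio of 1.19 beside 1.15 for the library totals. There 0 were called by limma, against 1.3% of all genes, and 14 were at an unadjusted p under 0.05; after scaling 0 were called, against 1.7%, and 7 were under 0.05. Complex III was summed higher in KO after median-of-ratios scaling, with no overlap of libraries, at a ratio of 1.07 in PIR+ cells and 1.09 in PIR- cells. On the deposited scale these ratios were 1.15 and 1.27 and the libraries overlapped.

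The members nearest to the threshold are named after their values were seen. In PIR- cells Sdhd had the lowest p, with 44.5, 45.0 and 42.6 in KO and 21.7, 26.3 and 38.8 in wild type, a log2 fold change of 0.63 ± 0.21, adjusted p = 0.134 (limma). Uqcr10, at 0.53, and Ndufs7, at 0.61, followed, both with an adjusted p of 0.198. In PIR+ cells Cox6a2 had the lowest p, at -0.89 ± 0.34 and adjusted p = 0.39 (limma), with the overlapping values given above. The authors' deposited table lists Cox6a2 at p = 0.0259 and Ndufa4 at p = 0.0172 for this comparison, and 2.50% of members under 0.05 beside 3.08% of genes.

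No member's KO effect differed between PIR+ and PIR- cells by the interaction test, where 0 of 75 were called, against 0.572% of all genes, and 2 were at an unadjusted p under 0.05. The same contrast tests whether the PIR+ to PIR- difference of a gene differs between genotypes. Cox6a2 had the lowest p, at -1.33 ± 0.48, adjusted p = 0.404 (limma). Averaged over subsets 0 members were called higher or lower in KO, against 1.78% of all genes, and 15 were at an unadjusted p under 0.05. On that average the members' median log2 fold change was 0.17 and that of all genes 0.15.

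For wild type the authors' deposited table, whose header does not say whether its p-values are adjusted, lists 4 of 79 members under 0.05, which is 5.06% beside 12.6% of all genes with a value. These were Ndufv3 at 0.00601, Cox7a2 at 0.0223, Ndufs5 at 0.0283 and Atp5e at 0.031. The same 4 are among the 9 members called in wild type after median-of-ratios scaling.

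Other genes of energy metabolism and antioxidant defence were counted from lists of textbook membership. Their counts on the deposited scale stand beside 40.6% of all genes higher and 3.72% lower in wild type, median 0.51, and 22.5% and 2.97% in KO, median 0.39. After median-of-ratios scaling the shares of all genes were 11.5% and 11% in wild type and 8.12% and 7.51% in KO. Of 18 tested genes listed as assembly factors, which put the complexes together, 7 were higher and 0 lower in PIR+ than in PIR- cells of wild type. In KO 6 were higher and 0 lower, and the medians were 0.49 and 0.47. Ndufab1, a complex I subunit that the symbol rule does not match, was on this list and among its wild-type calls. After scaling 1 was higher and 1 lower in wild type and 0 were called in KO, with medians of 0.02 and 0.08. Cox20, a chaperone in complex IV assembly, had the highest wild-type fold change of the list, with 20.2 ± 1.66 in PIR+ and 8.0 ± 0.866 in PIR- libraries (SD, n = 3 each), adjusted p = 0.000249 (limma). Of 10 tested regulators of mitochondrial gene expression, 0 were called in either genotype, and their medians were 0.31 in wild type and 0.06 in KO; after scaling 0 were called and the medians were -0.19 and -0.33.

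Of 19 tested genes of the tricarboxylic acid cycle and pyruvate entry, 14 rose and 0 fell in wild type and 10 rose and 0 fell in KO, with medians of 0.71 and 0.58. After scaling 2 rose and 0 fell in each genotype, with medians of 0.21 and 0.19. Pdha1, a subunit of pyruvate dehydrogenase, averaged 44.9 ± 6.69 in PIR+ KO and 23.3 ± 1.66 in PIR- KO, and 44.1 ± 6.05 in PIR+ wild type and 16.9 ± 1.27 in PIR- wild type (SD, n = 3 each). It rose on both scales in both genotypes, by 1.33 on the log2 scale in wild type, adjusted p = 1.08e-06 (limma). Idh2, the mitochondrial NADP-dependent isocitrate dehydrogenase, rose by 1.10 in wild type, adjusted p = 4.19e-06.

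Of 15 electron carriers and inner membrane exchangers, 9 rose and 1 fell in wild type and 4 rose and 1 fell in KO, with medians of 0.73 and 0.37. After scaling 4 rose and 1 fell in wild type and 1 rose and 1 fell in KO, with medians of 0.22 and -0.02. The one that fell was Ucp2, an inner membrane carrier, with 71.4 ± 12.8 in PIR+ KO and 154 ± 18.6 in PIR- KO, and 67.3 ± 16.0 in PIR+ wild type and 170 ± 22.7 in PIR- wild type (SD, n = 3 each). The log2 fold change was -1.11 in KO, adjusted p = 1.35e-06, and -1.34 in wild type, adjusted p = 4.22e-09 (limma). Atpif1, the inhibitor of ATP hydrolysis by complex V, went up on both scales, with 104 ± 7.26 in PIR+ KO and 51.5 ± 7.98 in PIR- KO.

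Of 15 genes of glycolysis and lactate transport, 11 rose and 1 fell in wild type and 10 rose and 1 fell in KO, with medians of 0.55 and 0.68. After scaling 2 rose and 3 fell in wild type, median 0.05, and 4 rose and 2 fell in KO, median 0.28. Slc16a1, a lactate and pyruvate transporter, was the one that fell on the deposited scale, with 16.2 ± 2.91 in PIR+ KO and 50.4 ± 2.75 in PIR- KO, and 17.4 ± 3.82 in PIR+ wild type and 58.0 ± 15.7 in PIR- wild type (SD, n = 3 each). Its adjusted p was 2.32e-08 in KO and 3.46e-09 in wild type (limma). The glucose transporter Slc2a3 rose, with 12.7 ± 1.21 in PIR+ wild type and 3.47 ± 0.635 in PIR- wild type.

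Of 9 genes of antioxidant defence, 5 rose and 0 fell in wild type and 2 rose and 0 fell in KO, with medians of 0.75 and 0.55. The list takes in enzymes that are also found outside mitochondria, such as Gpx1. After scaling 3 rose and 2 fell in wild type and 2 rose and 2 fell in KO, with medians of 0.25 and 0.16. Gpx1, a glutathione peroxidase, averaged 517 ± 98.4 in PIR+ KO and 177 ± 18.0 in PIR- KO, and 514 ± 65.5 in PIR+ wild type and 133 ± 16.4 in PIR- wild type (SD, n = 3 each). Its log2 fold change was 1.53 in KO, adjusted p = 1.60e-12, and 1.95 in wild type, adjusted p = 7.37e-18, and it stayed at 1.12 and 1.43 after scaling (limma). In the KO comparisons 0 genes of any of these lists were called on the deposited scale.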

How the data were processed

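RNA was measured in 12 libraries of 100 sorted cells. The authors deposited 1 table of 23420 genes, whose values have the unit signal: per the labels' protocols, molecular barcodes and a fixed amount of spike-in RNA were used, so they are read as normalized molecule counts, rounded to 1 decimal. TopHat2, mm10 and DESeq2 are named in the submitters' processing notes, without versions; the counting tool is not given in the sources used here. The authors also deposited p-values of 2 comparisons. Between 93% and 94.2% of values under 15 in a library lay within 0.055 of whole multiples of 1 step (0.49 to 0.776), which was taken as 1 molecule; counts are not claimed as recovered, so no count test was run. 

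Genes that reached 10 in 3 or more libraries entered a limma fit (version 3.58.1 under R 4.3.3) of 4 group means to log2(value + 1), using the trend option, and p-values were Benjamini-Hochberg adjusted over 4542 genes; a call is an adjusted p under 0.05. A fold change on this scale understates the change of low genes. Alternatives were median-of-ratios or library-sum scaling, pseudocounts of 0.1 and 5, other filters, a block for replicate number, leaving out each library, the globin-rich libraries or those whose markers field contradicts the title. Scripts were tested on simulated data. Figures used Python 3.11.15 and matplotlib 3.10.9.

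The members, gene lists and tests were chosen with earlier results of these data known. Named genes are members called on both scales, the 3 most abundant of each complex, isoform pairs and members called in the averages. Up to 3 called genes of each other list are also named. Others are said to be named after their values were seen. Ndufs5, Cox5a and Atp5e, called lower after scaling, were also named after their values were seen. Gene positions are GENCODE M21 (GRCm38, the mm10 assembly) and promoters are from RefSeq (GRCm38.p6). Values of 1 member are not reported here.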

Additional observations from a re-analysis of the deposited data

How the results depend on the processing

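Calls of members depended on the scale and on single libraries. In wild type the 39 calls between PIR+ and PIR- became 9 after median-of-ratios scaling, 13 after scaling to the library sum, 4 without the globin-rich libraries and 19 in the libraries where title and markers field give the same PIR sign. In KO the 22 calls became 5, 4, 2 and 14 under these changes, and 11 with no filter on low values. Averaged over genotypes, 54 became 17, 21 and 20 under the first 3. Chosen after seeing the data, scaling without the globin-rich libraries left 2, 1 and 7, and scaling with a replicate block 4, 5 and 14. Leaving out 1 library gave 24 to 43 calls in wild type (24 without PIR+ wild type 3), 6 to 31 in KO (12 without PIR+ KO 1, 6 without PIR+ KO 3, 8 without PIR- KO 1 and 7 without PIR- KO 2) and 44 to 63 averaged. The KO comparison gave 0 to 1 call in PIR- cells and 0 to 1 averaged (1 without PIR- wild type 3, and averaged also without PIR+ KO 2); markers-matched libraries gave 1 and 20, and averaged 1 without the globin-rich libraries. The sums' ratio of 1.44 in wild type became 1.01 and 1.06 under the 2 scalings, and 1.31 in KO became 0.991 after median-of-ratios scaling. The fit on libraries whose title and markers field match leaves PIR+ KO and PIR- wild type with 1 library each. Shares of all genes called are not given for that fit, library-sum scaling or the replicate block. Their counts therefore cannot be set against all genes. The causes were not tested. Same-number correlations of deviations ran from -0.106 to 0.162, 1 of 18 over 0.1, and those of other pairs from -0.125 to 0.18, 3 of 36 over 0.1. Most same-number pairs join different genotypes, so this cannot exclude pairing of PIR+ and PIR- libraries within a genotype. Between same-numbered PIR+ and PIR- libraries they were 0.162, 0.0409 and 0.0623 in KO and 0.046, -0.0458 and 0.0302 in wild type. With the replicate block, calls were 53 in wild type, 38 in KO, 4 for KO in PIR- cells and 10 for KO averaged. Of 660 values of 55 gene results with 1 library left out, 611 kept their call, 49 lost it and 0 changed sign. Median-of-ratios scaling, alone and with the block, turned the sign in wild type of Uqcr11 (-0.04 in each) and Atp5g1 (-0.00), and averaged of Uqcrh (-0.06), Uqcr11 (-0.01) and Atp5g1 (-0.03). Scaling without the globin-rich libraries turned, in wild type, Ndufa3 (-0.02), Uqcr11 (-0.04), Cox6a2 (-0.34), Cox6b1 (-0.09), Cox7b (-0.08) and Atp5g1 (-0.09), and averaged Uqcr10 (-0.05), Atp5b (-0.03), Cox6b1 (-0.09), Cox7b (-0.06) and Atp5g1 (-0.09). Depth limits members near 10 molecules, such as Ndufs5 and Cox6a2.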
